A study of Rattus norvegicus with 12 samples.

Results

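Myelin and mature oligodendrocyte genes were followed in rat hippocampal slice cultures through 9 genes, Mbp, Mobp, Mog, Mag, Cnp, Cldn11, Ermn, Gpr37 and Car2. Their members on the array were all probe sets that the platform annotation gives to exactly 1 of these symbols, 18 probe sets of the 31042 tested. The slices were cut from the hippocampus of Wistar rats at postnatal day 7 and kept for 26 days in vitro. There were 4 groups of 3 arrays, and each array held the RNA of 24 pooled cultures. NT cultures were not treated. IgG cultures received a control monoclonal antibody to wheat auxin, 11C7 cultures a mouse monoclonal antibody to amino acids 623 to 640 of rat Nogo-A, and 7B12 cultures one to amino acids 763 to 820. Each antibody was present at 3 µg/ml for 5 days from day 21 in vitro. Each group had replicates numbered 1, 2 and 3 from different animals, and the sources used here do not say what a number shares across groups.

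Oligodendrocytes wrap axons in myelin, a stack of membrane that speeds conduction. Compact myelin is held together by proteins on its inner faces, while other proteins line its outer surface, its contact with the axon and its tight junctions. Nogo-A, the target of 11C7 and 7B12, is carried by oligodendrocytes and limits the growth of neurites, and Mag is another myelin protein with that effect. In slice cultures the oligodendrocytes of the young hippocampus mature and form myelin during the weeks in vitro.

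Promoter sequences are shown because most of the 9 genes varied together across the arrays. RefSeq promoters of GRCr8 were matched for 6 of the 9 genes, with 7 entries since Mbp has a pair of starts, and Mog, Ermn and Car2 had none. The 250 bases before the start site were searched on both strands for ACAAAG or ACAATG, which SOX factors such as the oligodendrocyte regulator SOX10 bind, for CTGGCAC or CTGGTAC, the motif of the myelin regulator MYRF, and for the E-box CAGCTG. Those of Mag (chr1:95291045-95291294, minus strand), Cnp (chr10:86011254-86011503, plus strand) and Cldn11 (chr2:114149540-114149789, minus strand) are given from 5′ to 3′ on the gene's strand, with each match in capitals, as the 3 genes that held a MYRF match.
Mag: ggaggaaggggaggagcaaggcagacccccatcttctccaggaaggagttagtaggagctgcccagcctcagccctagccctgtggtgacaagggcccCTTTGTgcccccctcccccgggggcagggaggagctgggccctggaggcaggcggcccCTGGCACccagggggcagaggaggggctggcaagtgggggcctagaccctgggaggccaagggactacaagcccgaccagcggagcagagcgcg
Cnp: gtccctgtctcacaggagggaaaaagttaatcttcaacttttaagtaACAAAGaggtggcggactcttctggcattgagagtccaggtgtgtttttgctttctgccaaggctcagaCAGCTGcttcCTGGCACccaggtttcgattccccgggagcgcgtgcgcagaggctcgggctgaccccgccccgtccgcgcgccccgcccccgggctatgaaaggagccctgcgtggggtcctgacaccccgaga
Cldn11: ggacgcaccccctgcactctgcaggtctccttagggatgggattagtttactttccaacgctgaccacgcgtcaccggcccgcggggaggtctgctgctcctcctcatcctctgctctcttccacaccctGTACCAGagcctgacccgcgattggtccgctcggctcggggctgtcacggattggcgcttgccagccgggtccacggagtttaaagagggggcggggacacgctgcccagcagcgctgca
A MYRF match was in the promoters of 3 of the 6 genes and in 5.48% of all 33469 promoters. A SOX match was in those of 4 genes (Mbp, Mobp, Mag and Cnp) against 25.3% of all, and the E-box in those of 2 genes (Mbp and Cnp) against 12% of all. No 2 matches overlapped in the sequences shown. A match is only a run of letters and says nothing of binding.

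Values are log2 of the deposited ratio less the median of the array, so that 0 is close to a probe set's middle array, and a level in 1 gene cannot be set against that in another. All 18 probe sets had a median ratio of 1 over the 12 arrays. Whether a transcript was present could therefore not be judged by level. In slice RNA, fewer oligodendrocytes and less of a transcript in each cell cannot be told apart.

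The main difference among the arrays lay between replicate numbers. The mean of the 9 genes was lowest in the array numbered 1 and highest in the array numbered 3 in each of the 4 groups. Mog, whose glycoprotein sits on the outermost face of myelin, stood at -0.99 in NT 1, -1.06 in IgG 1, -0.36 in 11C7 1 and -0.83 in 7B12 1. It stood at 0.90, 0.88, 0.74 and 0.39 in the arrays numbered 3 of the same groups, and between -0.20 and 0.30 in those numbered 2. The 4 arrays numbered 1 were all below the 4 numbered 3. The difference of 1.53 between their means is 2.90-fold, with an SD of 0.31 among the arrays numbered 1 and 0.24 among those numbered 3 (n = 4 each). Mog passed limma's F test over numbers 1, 2 and 3 (adjusted p = 0.00578).

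By that test 13 of the 18 probe sets (72.2%), from 7 of the 9 genes, differed among the numbers, all of them higher in number 3 than in number 1. Of all probe sets, 17.9% passed, and 9.11% passed and were higher in number 3. The 13 differences between numbers 3 and 1 ran from 0.84 to 1.94 (1.79-fold to 3.83-fold). In the F test their adjusted p lay between 0.00360 and 0.0384. Here and below, an adjusted p of the number belongs to that F test over numbers 1, 2 and 3 together. The difference between numbers 3 and 1 was not tested by itself. When single arrays were left out, 9 to 13 passed. Number 1 was below number 3 in all 4 groups in 15 of the 18 (19.5% of all probe sets) and below number 2 in 13 (18.6%), and all 4 arrays numbered 1 were below all 4 numbered 3 in 11 (12.7%). The median over the 9 genes was 1.17, against 0.014 over all 14217 genes with 1 symbol.

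**Figure D1:**
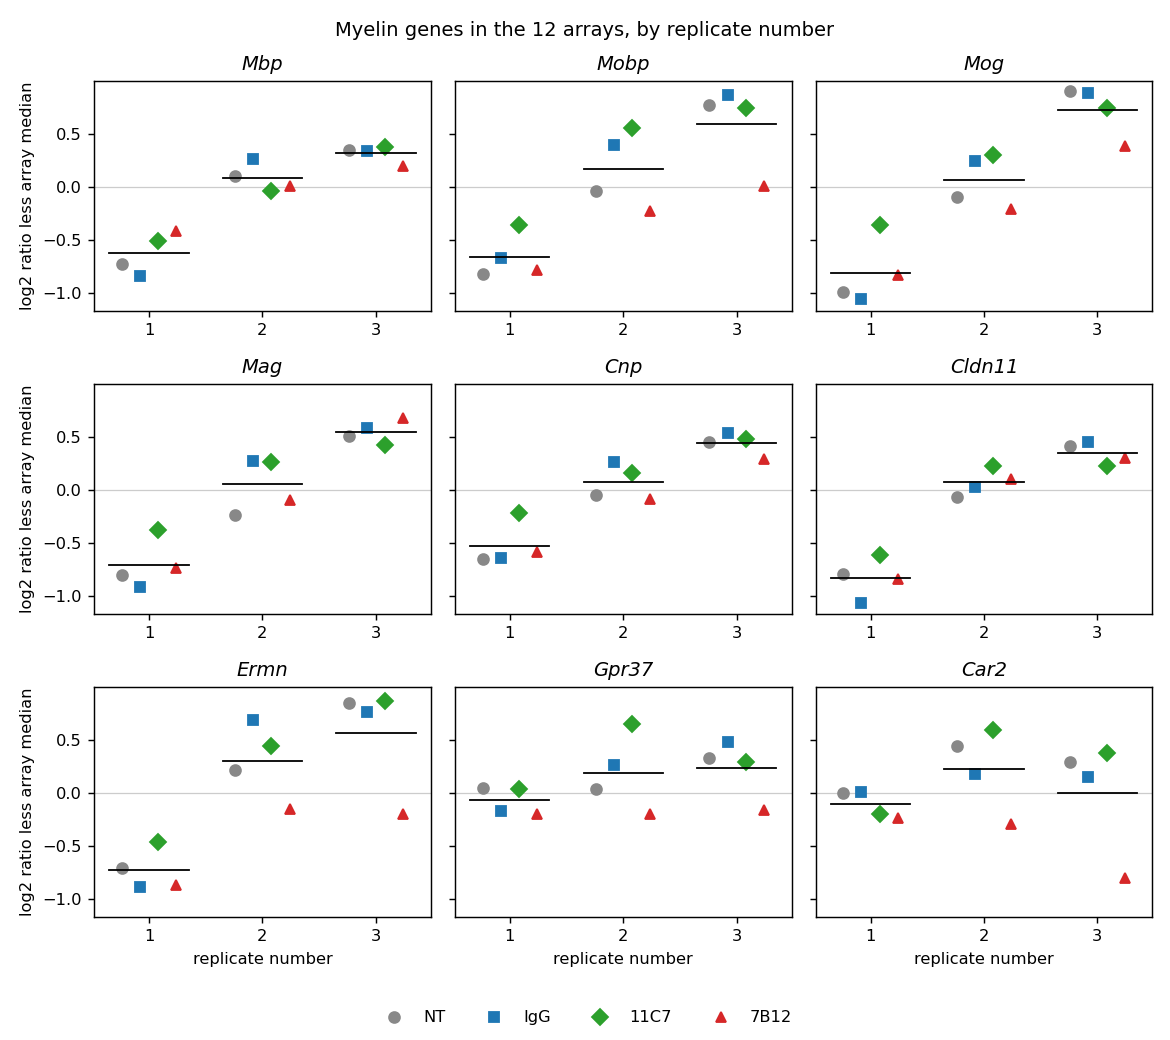
Log2 ratio less array median (vertical axis) of each myelin gene, the mean of its probe sets, by replicate number (horizontal axis). Each symbol is 1 array of NT, IgG, 11C7 or 7B12, and the bar is the mean of 4 arrays. In Mog the number 3 arrays sit between 0.39 and 0.90, all above the number 1 arrays, while in Car2 the 7B12 arrays sit lowest in each number.

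Among genes of compact myelin, Mbp encodes myelin basic protein, which joins the inner membrane faces. Its probe set 1387341_a_at stood at -1.36 in NT 1, -1.28 in IgG 1, -0.78 in 11C7 1 and -1.15 in 7B12 1, and at 0.48, 0.43, 0.61 and 0.37 in the arrays numbered 3. The arrays numbered 1 and 3 did not overlap, and the difference between numbers 3 and 1 was 1.62. The probe set passed limma's F test of the number (adjusted p = 0.00696). The probe set 1368810_a_at showed 0.96 (adjusted p = 0.0126), whereas 1383479_at showed 0.25 and did not pass (adjusted p = 0.668). Over the 12 arrays 1383479_at correlated with the other two only at r = 0.26 and 0.31, and these correlated with each other at r = 0.98. Mobp encodes another basic protein of compact myelin. Its probe set 1370434_a_at had the largest difference of the 18, 1.94, from -1.26, -1.22, -0.89 and -1.33 in NT 1, IgG 1, 11C7 1 and 7B12 1 to 0.93, 1.04, 1.01 and 0.07 in number 3 (limma adjusted p = 0.00360). Here 7B12 3 was far below the other 3 arrays of its number.

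Cldn11 encodes claudin-11, the tight junction protein of the myelin sheath. Its mean over 2 probe sets was -0.79, -1.07, -0.61 and -0.84 in the arrays numbered 1 of NT, IgG, 11C7 and 7B12, and 0.42, 0.45, 0.22 and 0.30 in those numbered 3. Both probe sets passed among the numbers (limma adjusted p = 0.00558 and 0.00824). Cnp, whose phosphodiesterase keeps cytoplasm-filled channels open in the sheath, went from -0.65, -0.64, -0.22 and -0.58 to 0.45, 0.53, 0.48 and 0.29, and both of its probe sets passed. Mag, whose glycoprotein faces the axon, went from -0.80, -0.91, -0.38 and -0.73 to 0.50, 0.58, 0.42 and 0.68 (limma adjusted p = 0.00800). In these 3 genes, too, every array numbered 1 was below every array numbered 3. In all 3 the 11C7 array was the highest of those numbered 1.

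Ermn, which encodes ermin, a protein that binds the actin cytoskeleton late in oligodendrocyte maturation, differed among the numbers in all 3 probe sets (limma adjusted p = 0.0384, 0.0287 and 0.0105). Gpr37, which encodes a G protein-coupled receptor that restrains oligodendrocyte maturation, differed by 0.31 and did not pass (adjusted p = 0.312). Car2, which encodes the carbonic anhydrase of oligodendrocytes, differed by 0.12 and 0.10 in its 2 probe sets and did not pass (0.558 and 0.294). The remaining Mobp probe set 1368263_a_at did not pass either (0.52, adjusted p = 0.171). Over the 12 arrays the 7 genes other than Gpr37 and Car2 correlated pairwise at r between 0.84 and 0.99 (21 pairs), a description only since the arrays share the replicate numbers.

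**Figure D2:**
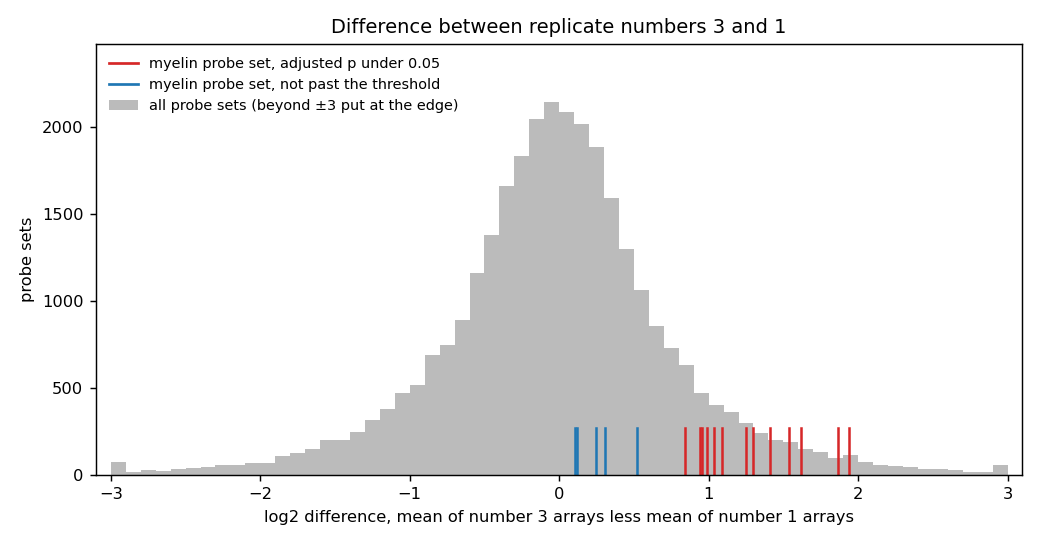
Histogram of the log2 difference between the mean of the 4 arrays numbered 3 and that of the 4 numbered 1 (horizontal axis) over 31042 probe sets (vertical axis, number of probe sets), with the 18 myelin probe sets as vertical lines. The 13 lines past the threshold lie between 0.84 and 1.94, and all 18 lie above 0.

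Further oligodendrocyte and myelin genes were taken from a fixed list of 40, of which 34 were measured with 45 probe sets. Among the numbers 21 of these probe sets (46.7%), from 18 genes, passed limma's F test, all higher in number 3 than in number 1, by 0.64 to 2.65, where 17.9% of all probe sets passed and 9.11% passed and were higher in number 3. Mal, whose protein carries myelin proteins to the membrane, differed by 1.92 (adjusted p = 0.00505), the gap junction gene Gjb1 by 1.54 (0.00578) and Sox10, the lineage transcription factor gene, by 0.95 (0.0125). Olig1 and Olig2, which also encode transcription factors of the lineage, did not pass. Among the others that did not pass were Opalin (1.04, limma adjusted p = 0.0856), Myrf (0.58, 0.0643), Omg (0.47, 0.0918) and Gal3st1 (0.55, 0.305).

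Markers of other cell types also differed among the numbers, where 17.9% of all probe sets passed. All 8 neuron markers were higher in number 3 than in number 1, by a median of 1.23, which is above that of the myelin genes. Of their 13 probe sets 10 passed, 9 of them higher in number 3. The mean of the 8 markers was between -1.69 and -0.98 in the arrays numbered 1, between 0.41 and 1.25 in those numbered 2 and between -0.16 and 0.21 in those numbered 3, so that unlike the mean of the myelin genes it was highest in number 2. All 8 microglia markers were higher in number 3 than in number 1, by a median of 0.68, and 9 of 11 probe sets passed. Of 6 endothelial markers 1 was higher in number 3, and 3 of 9 probe sets passed. Of 5 precursor markers 1 was higher, and 1 of 7 probe sets passed. Of 7 astrocyte markers 4 were higher in number 3 than in number 1, and the median difference was 0.34. Their mean was 0.04, 0.04 and 0.05 in numbers 1, 2 and 3, with 2 of 14 probe sets past the threshold. The mean ran from -0.31 to 0.22 over the arrays. That of the microglia markers ran from -0.49 to 0.78. Schwann cells make the myelin of peripheral nerves. All 3 of their markers were higher in number 3 than in number 1, by a median of 0.32, and 1 of 4 probe sets passed. The mean of these markers was -0.57, -0.01 and 0.21 in numbers 1, 2 and 3. The part of these cell types in the myelin result was not tested.

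**Figure D3:**
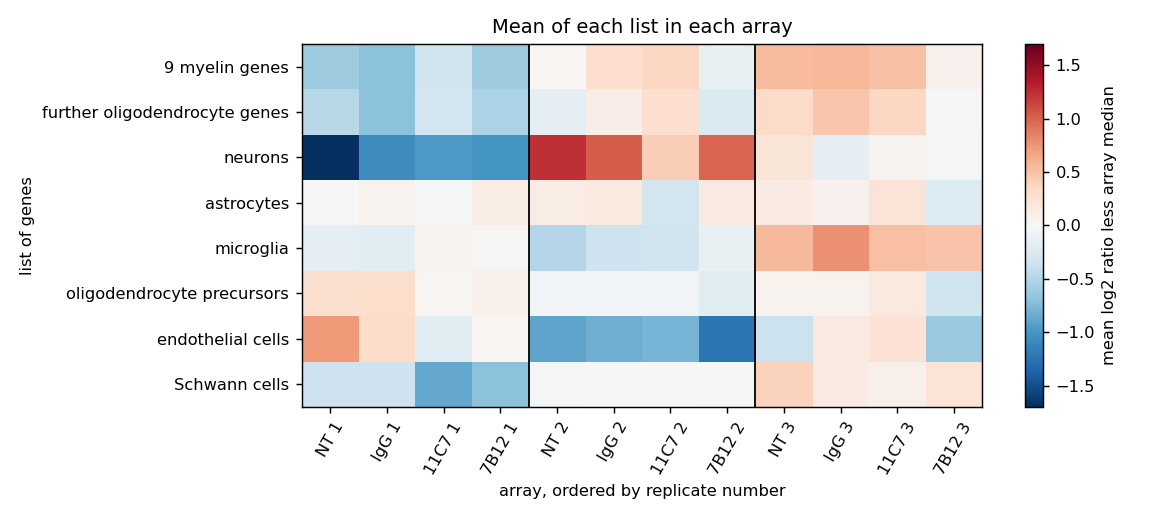
Mean log2 ratio less array median (colour) of the 9 myelin genes and of 7 other lists (rows) in each array (columns, ordered by replicate number). Myelin means run from -0.69 in IgG 1 to 0.56 in IgG 3, and neuron means are highest in number 2.

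The question for the antibodies was whether genes of the cells that carry Nogo-A differ when it is bound. Against the mean of NT and IgG, 15 of the 18 probe sets were lower in 7B12, and the median over the 9 genes was -0.20 (all genes 0.012). None passed: limma called 0 of the 18 and 0% of all probe sets, and the smallest adjusted p among the 18 was 0.787. At an unadjusted p under 0.05, 2 of 18 were lower, both of Car2, against 2.12% of all, and 0 were higher, against 3.09%. That fit leaves the replicate number out. With the number as a block in limma, 5 of 18 had an unadjusted p under 0.05, all lower and of Car2, Ermn and Mobp. Of all probe sets 9.45% did so in either direction, and the smallest adjusted p among the 18 was 0.386. The one-way analysis of variance over the 4 groups that the study names, at 0.05 and at least 1.2-fold, gave 1 of 18, also Car2, against 2.99% of all, and 0 after Benjamini-Hochberg adjustment. The 7B12 median was 0.023 without NT 3, 0.011 without IgG 3 and 0.11 without 7B12 1, omissions that leave the numbers unbalanced. With the number as a block it ran from -0.32 to -0.11 when single arrays were left out.

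Car2 was the only member gene whose 7B12 arrays lay apart from all control arrays when the numbers were not paired. Its probe set 1367733_at stood at -0.04, 0.31 and 0.15 in NT 1, 2 and 3, at -0.0030, 0.12 and 0.27 in IgG, at -0.18, 0.54 and 0.48 in 11C7, and at -0.30, -0.34 and -0.96 in 7B12. All 3 arrays of 7B12 were below all 6 control arrays, as was the case for the probe set 1386922_at, and 7B12 3 was the lowest. Of all probe sets 1.11% showed this, and of the 18 only those of Car2, while 0 had all 3 arrays above all 6 controls (1.99% of all). The difference from the controls was -0.67 ± 0.22 (SE) and -0.58 ± 0.22 for the 2 probe sets (limma adjusted p = 0.787 and 0.874, unadjusted p = 0.0133 and 0.0265). The mean of both is 0.649-fold of the controls. Its sign held in all 31 alternative settings, from -0.86 to -0.41. Some of these cannot change the value: leaving out an 11C7 array, the number block with all arrays and the filter on a median of 1. Without 7B12 3 neither probe set had an unadjusted p under 0.05 (0.0758 and 0.119), and with IgG alone as the control 1386922_at did not (0.106). Car2 did not stand alone with the number as a block in limma. Unadjusted p was then 0.0131 and 0.0138 for Car2, 0.0102 for Mobp 1370434_a_at, 0.0112 for Ermn 1382382_at and 0.0562 for Gpr37.

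Ermn, Mobp and Gpr37 were also lower in 7B12 than the mean of the controls of the same number, by amounts that differed between numbers. Ermn stood at -0.70, 0.22 and 0.85 in NT 1, 2 and 3, at -0.88, 0.69 and 0.76 in IgG, at -0.46, 0.44 and 0.86 in 11C7, and at -0.86, -0.15 and -0.20 in 7B12. Its 7B12 arrays overlapped with the control arrays, which reach from -0.88 to 0.85. Against the mean of NT and IgG of the same number the 7B12 arrays were -0.07, -0.61 and -1.01 apart for numbers 1, 2 and 3 (mean -0.56 ± 0.47 SD, n = 3). Those of Mobp were -0.03, -0.41 and -0.81 apart (-0.42 ± 0.39), those of Gpr37 -0.13, -0.35 and -0.57 (-0.35 ± 0.22) and those of Car2 -0.24, -0.60 and -1.03 (-0.62 ± 0.39). In each of these 4 genes number 3 differed most and number 1 least. The difference of the group means depended on single arrays, whose omission also leaves the numbers unbalanced. For Ermn it was -0.33 without 7B12 1. For Mobp it was -0.20 without 7B12 1, -0.22 without NT 3, -0.25 without IgG 3 and -0.63 without IgG 1. With the number as a block, the difference was -0.77 for Ermn and -0.58 for Mobp without 7B12 1. Without 7B12 3 it was -0.35 and -0.27. None of their probe sets passed (limma adjusted p = 0.787 or more).

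Gpr37 was nearly level among the 7B12 arrays, at -0.19, -0.20 and -0.16, while the control arrays ran from -0.17 to 0.48. The highest 7B12 array thus overlapped with IgG 1 by a small margin. Mobp stood at -0.78, -0.23 and 0.0029 in 7B12, against -0.82, -0.03 and 0.77 in NT and -0.67, 0.39 and 0.87 in IgG. Below both NT and IgG of the same number in all 3 numbers were 5 of the 18 probe sets (27.8%), 2 of Car2, 2 of Mobp and that of Gpr37, against 7.38% of all probe sets. Above both in all 3 numbers were 0 of 18, against 8.07%.

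Of the other 5 genes, Mog, Cnp and Mbp were also below the mean of the controls in numbers 2 and 3 and above it in number 1. Mag in 7B12 was 0.13, -0.11 and 0.13 from the controls of its number (0.05 ± 0.14 SD, n = 3), Cldn11 0.09, 0.13 and -0.14 (0.03 ± 0.14) and Cnp 0.07, -0.20 and -0.20 (-0.11 ± 0.15). Mbp was 0.37, -0.18 and -0.15 from them (0.02 ± 0.31), where the value of 7B12 1 was furthest from the controls in the probe set 1383479_at (0.42 there, against -0.12 and -0.55 in NT 1 and IgG 1). Mog was 0.19, -0.28 and -0.50 from them (-0.20 ± 0.36). After the mean of each number was taken out, Ermn correlated with Mobp at r = 0.91, with Mog at r = 0.80, with Car2 at r = 0.80, with Cnp at r = 0.75 and with Mag at r = 0.25 over the 12 arrays. Mog correlated with Cnp at r = 0.94, with Mobp at r = 0.89 and with Gpr37 at r = 0.75, and Mag with Car2 at r = -0.19. Over the 21 pairs of the 7 genes other than Gpr37 and Car2, r then ran from 0.22 (Mbp with Cldn11) to 0.94. For Car2 with the other genes it ran from -0.19 (Mag) to 0.80 (Ermn). These values are descriptions, and the arrays share the number means.

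**Figure D4:**
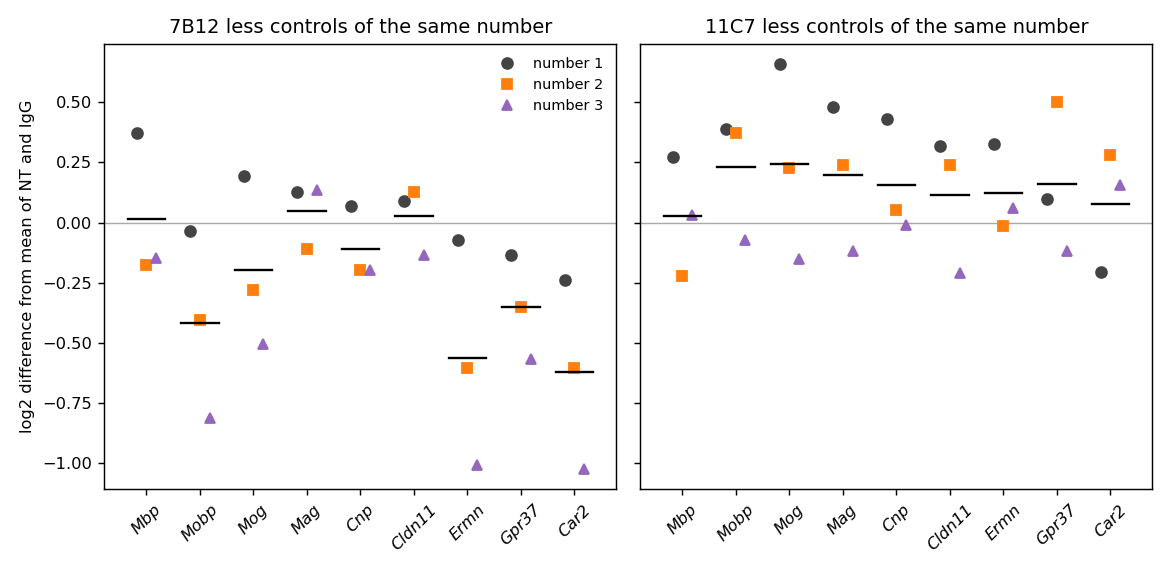
Log2 difference of each 7B12 array (left) and 11C7 array (right) from the mean of NT and IgG of the same replicate number (vertical axis) for the 9 myelin genes (horizontal axis), with the mean of 3 as a bar. In 7B12 the means of Mobp, Ermn, Gpr37 and Car2 lie between -0.62 and -0.35, and those of Mbp, Mag and Cldn11 between 0.02 and 0.05.

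In 11C7, 17 of the 18 probe sets were higher than the mean of NT and IgG, by up to 0.43, and the median over the 9 genes was 0.16 (all genes 0.031). None passed: limma called 0 of 18 and 0% of all probe sets, and 0 of 18 had an unadjusted p under 0.05 (2.23% of all lower, 0.989% higher). No probe set of the 18 had all 3 arrays of 11C7 below (0.902% of all) or above (0.767%) all 6 controls, and 0 were below (4.52%) or above (4.5%) NT and IgG of the same number in all 3 numbers. The sign of the median did not hold without IgG 1 (-0.024) or 11C7 3 (-0.012), omissions that leave the numbers unbalanced. With the number as a block the median ran from 0.099 to 0.25 when single arrays were left out. Against the controls of the same number, the 11C7 arrays numbered 1, 2 and 3 had a mean of the 9 genes 0.31, 0.19 and -0.05 apart. Mog, for example, was 0.66, 0.23 and -0.15 from them. The 7B12 and 11C7 comparisons share their control arrays.

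7B12 was therefore also set against 11C7 itself. All 9 genes were lower in 7B12, with a median of -0.44 (all genes -0.0087), and so were all 34 further genes, with a median of -0.36. The differences ran from -0.70 (Car2) to -0.0099 (Mbp) in the 9 and from -1.435 to -0.0020 in the 34, so that some were close to none. Without 7B12 1 or 11C7 3, 6 of 9 were lower, and 30 and 28 of 34. Without any other single array of the 2 groups, 8 or 9 of 9 and 30 to 33 of 34 were lower. In these omissions 48.4% to 51.8% of all genes were lower. Such omissions leave the numbers unbalanced. With the number as a block the median over the 9 genes ran from -0.59 to -0.30 when single arrays were left out. Within the numbers 1, 2 and 3, 8, 8 and 7 of the 9 genes and 26, 31 and 25 of the 34 were lower in 7B12, as were 57.8%, 50% and 45.9% of all genes. The mean of the 9 genes differed by -0.27, -0.48 and -0.43 (-0.39 ± 0.11 SD, n = 3).

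No single probe set passed between the antibodies: limma called 0 of 18 and 0% of all, and each of the 18 had an adjusted p of 1. At an unadjusted p under 0.05, 3 of 18 were lower in 7B12, both of Car2 and that of Gpr37, against 1.23% of all, and 0 were higher (2.6% of all). With the number as a block in limma, 8 of 18 had an unadjusted p under 0.05, all lower in 7B12, against 7.04% of all in either direction. The smallest adjusted p among the 18 was then 0.698. In 4 of 18, of Car2, Mobp, Ermn and Gpr37, all 3 arrays of 7B12 were below all 3 of 11C7, against 3.41% of all. Lower in all 3 numbers were 10 of 18 probe sets (55.6%) and 22 of the 45 of the further genes, against 13.3% of all. Among these were Mog, with differences of -0.46, -0.50 and -0.35 in numbers 1, 2 and 3 (-0.44 ± 0.08 SD, n = 3), and Cnp, with -0.36, -0.25 and -0.19 (-0.27 ± 0.09). For Mbp they were 0.10, 0.05 and -0.18.

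Of the further genes, those with the smallest unadjusted p in 7B12 against the controls were Omg, the gene of oligodendrocyte myelin glycoprotein (-0.42 ± 0.22 SE), Zfp488, the gene of a transcription factor of oligodendrocytes (-0.39 ± 0.22), the protease gene Klk6 in the other direction (0.87 ± 0.51) and Olig1 (-0.22 ± 0.15). In 11C7 they were Zfp488 (0.44 ± 0.22), Klk6 (0.89 ± 0.51), Olig2 (0.27 ± 0.16) and the lysophosphatidic acid receptor gene Lpar1 (0.31 ± 0.23). The values of Olig2 and Lpar1 are each from a single probe set. In 11C7 the other probe set of Olig2 was below the controls (-0.45 ± 0.67), and that of Lpar1 above them (0.088 ± 0.26). Limma passed none of the 45 probe sets in either comparison (smallest unadjusted p 0.0845 and 0.0736). Beside these, all 5 precursor markers were below the controls in 7B12, with a median of -0.29, and 5 of 6 endothelial markers, with a median of -0.40. Olig2 is on both the precursor list and that of further genes. Neuron and astrocyte markers had medians of 0.08 and -0.04, microglia markers 0.22 and Schwann cell markers -0.26. The part of these cell types in the 7B12 values was not tested.

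The control antibody was set against no treatment. In IgG against NT 13 of 18 probe sets were higher, and the median over the 9 genes was 0.067 (all genes -0.0038). Limma called 0 of 18 and 0% of all, and the smallest unadjusted p was 0.300 (1% of all were lower and 1.31% higher at an unadjusted p under 0.05). Over the numbers the mean of the 9 genes differed by -0.09, 0.25 and 0.02. Both antibodies together had 9 of 18 probe sets above and 9 below the mean of NT and IgG, and a median of 0.021 (all genes 0.017), and limma called 0 of 18 and 0% of all, with 0 of 18 at an unadjusted p under 0.05 (1.96% of all lower, 2.37% higher). In that average the lower values in 7B12 and the higher ones in 11C7 were opposed.

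The genes most like the mean of the 9 over the 12 arrays, among 17286 other probe sets with 1 symbol and a median of 1, were Chn2 (Pearson's r = 0.98), Strn (0.98), Pmp2 (0.98), Plekha1 (0.97) and Bcas1 (0.97), of which Bcas1 was on the list of further genes and Pmp2 among the Schwann cell markers. After the mean of each number was taken out they were Bpgm (0.98), Sub1 (0.97), Idi1 (0.96), Strn (0.96) and Atg2b (0.95).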

How the data were processed

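Each of 12 RNA samples was copied to biotin-labelled cRNA for 1 Affymetrix array, as the labels describe. GCOS 1.4 and MAS5 are the tools that the submitters' processing notes name. The deposited values are ratios: the authors scaled each array and each probe set to a median, per the series' design text. That text names the controls' median, but 76.4% of probe sets have a 12-array median of 1 (within 0.0015). Array medians on the log2 scale ran from -0.13 to -0.019 and were taken off. Arrays have no depth; their number limits the precision.

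Of 31099 probe sets, 57 spike-in controls were left out. Groups came from the sample titles. Limma 3.58.1 (R 4.3.3) was fitted to all 12 arrays with 1 mean per group and eBayes without a trend (two-sided, Benjamini-Hochberg over all probe sets, threshold 0.05). An F test of the replicate number used number and group as factors. The scripts were tested on simulated data. Probe sets of a gene were averaged. Alternatives were the number as a block, no centring, a median of 1, a pseudocount of 0.1, array weights, IgG alone, other probe sets and single arrays left out. All members were named, with the 4 further genes of smallest p per antibody and the 5 genes most like the mean. Members and lists were chosen with earlier results of these data known. Gene symbols came from the platform annotation and promoters from RefSeq (GRCr8).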

Additional observations from a re-analysis of the deposited data

How the results depend on the processing

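The one-way analysis of variance at an unadjusted 0.05 and 1.2-fold gave 1 of 18. No myelin probe set passed limma's test between groups in any setting, with the smallest adjusted p at 0.24. That value was from 7B12 against the controls with the replicate number as a block and without 7B12 1. With the block and all arrays kept, the smallest adjusted p in 7B12 was 0.386. In that limma fit 5 probe sets of Car2, Ermn and Mobp had an unadjusted p under 0.05 in place of 2 (9.45% of all probe sets), and 8 against 11C7 in place of 3 (7.04%). The deviations of same-numbered arrays correlated at r from 0.086 to 0.42 in 18 pairs, and each of the 12 arrays matched best with its own number. What same-numbered arrays share was not tested. The median over the 9 genes ran from -0.44 to 0.11 in 7B12 when single arrays were left out (-0.32 to -0.11 with the block), from -0.024 to 0.39 in 11C7 (0.099 to 0.25) and from -0.65 to -0.14 in 7B12 less 11C7 (-0.59 to -0.30). For both antibodies and for IgG against NT it changed sign in several settings, as it did in 11C7 with array weights (-0.0025). IgG alone as the control with the number as a block was added after seeing the data (-0.24 in 7B12). The 13 probe sets that differed among the numbers were 13 in each setting that kept all arrays.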
